A study of Mus musculus with 12 samples.

Results

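Smooth-muscle type contractile genes were followed in 3T3 cells, a fibroblast line established from mouse, given the ligand Shld1 or left as controls. The set holds 10 genes: the actins Acta2 and Actg2, the actin-binding genes Tagln, Cnn1, Cnn2, Tpm1, Tpm2 and Cald1, the myosin light chain gene Myl9 and the intermediate filament gene Des. They were chosen by symbol, and every probe that the platform annotation assigns to 1 of the 10 symbols was used, 22 of 38784 probes and 10 of 16969 named genes. Of the 22 probes, 21 had enough values to be tested. The other one, an Acta2 probe numbered 9102, was blank on all 12 arrays.

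The groups were control cells and cells given Shld1 at 10 nM, 100 nM or 1 µM, with 3 arrays each. Shld1 is a synthetic ligand that binds an engineered FKBP12 domain and protects proteins fused to it from degradation. The sources used here do not give the duration of treatment, what the controls received instead, or any fusion protein in the cells. Every array carried the RNA of 1 cell sample in Cy5 and a Stratagene mouse reference RNA in Cy3. All values below are log2 ratios of 3T3 cells over that reference, after each array was centred on its median, so a value of 1 is a doubling. The log base is taken as 2. The direction rests on the dyes and on genes of known sign, and were it the reverse, higher and lower would change places throughout. Separate cultures are not stated for the replicates, so a p-value here covers the spread between these samples alone, which may be technical.

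Smooth muscle contracts when phosphorylated myosin pulls on thin filaments of actin, along which tropomyosin, caldesmon, calponin and transgelin lie. Fibroblasts carry part of this machinery in their stress fibres and make more of it when they turn into myofibroblasts, a state induced by TGF-beta and by mechanical tension. Transcription of many of the genes is driven by serum response factor, SRF, which binds a short DNA element named the CArG box together with its cofactors of the myocardin family.

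Promoter sequences were available from RefSeq (GRCm38.p6) for 8 of the 10 genes, as 9 windows. Actg2 and Tagln had no entry. The 250 bases before the start of the 3 genes whose windows hold a CArG box, or a CArG box with 1 core base that is G or C, are shown because these boxes are the best known control element of the set. Capitals mark the boxes, which were searched on both strands. Each window searched also runs past the start, and the motif counts below refer to the whole window. The Acta2 stretch shown lies on the minus strand at chr19:34255374-34255623, the Cnn2 stretch on the plus strand at chr10:79988350-79988599 and the Myl9 stretch on the plus strand at chr2:156775214-156775463.
Acta2: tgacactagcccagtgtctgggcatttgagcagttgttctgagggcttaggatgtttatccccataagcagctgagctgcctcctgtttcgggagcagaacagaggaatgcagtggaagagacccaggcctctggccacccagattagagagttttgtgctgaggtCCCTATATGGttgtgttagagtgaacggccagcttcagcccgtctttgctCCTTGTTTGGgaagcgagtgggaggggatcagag
Cnn2: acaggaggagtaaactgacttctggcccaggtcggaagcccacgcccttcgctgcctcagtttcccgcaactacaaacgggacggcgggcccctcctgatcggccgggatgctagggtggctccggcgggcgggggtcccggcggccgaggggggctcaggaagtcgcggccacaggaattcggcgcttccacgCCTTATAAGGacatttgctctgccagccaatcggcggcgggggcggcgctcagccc
Myl9: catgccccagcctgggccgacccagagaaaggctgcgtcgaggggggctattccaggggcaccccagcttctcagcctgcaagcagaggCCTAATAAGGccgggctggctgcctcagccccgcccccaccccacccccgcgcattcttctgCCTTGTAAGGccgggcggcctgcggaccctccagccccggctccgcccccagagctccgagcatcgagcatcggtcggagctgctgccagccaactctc
The Cnn2 window held 1 box, CCTTATAAGG, beginning 56 bases before the start. In the Myl9 window CCTAATAAGG began 161 bases and CCTTGTAAGG 99 bases before the start, and in the Acta2 window CCCTATATGG began 84 bases and CCTTGTTTGG 34 bases before it. A CArG box with only A and T in its core occurred in 2 of the 9 windows of the set (Cnn2 and Myl9), and in 1.63% of all 32851 promoter windows of the same length. With 1 G or C allowed in the core it occurred in 3 of 9 windows, against 9.98% of all windows. The letters CATTCC, the core of the sites of TEAD factors, were found in 3 of 9 windows (14.7% of all), and TATAAA in 1 of 9 (13.6% of all). Each match is a description of the letters in the window. The ratios of Acta2, Cnn2 and Myl9 against the reference, given below, differed from gene to gene and from probe to probe.

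**Figure D1:**
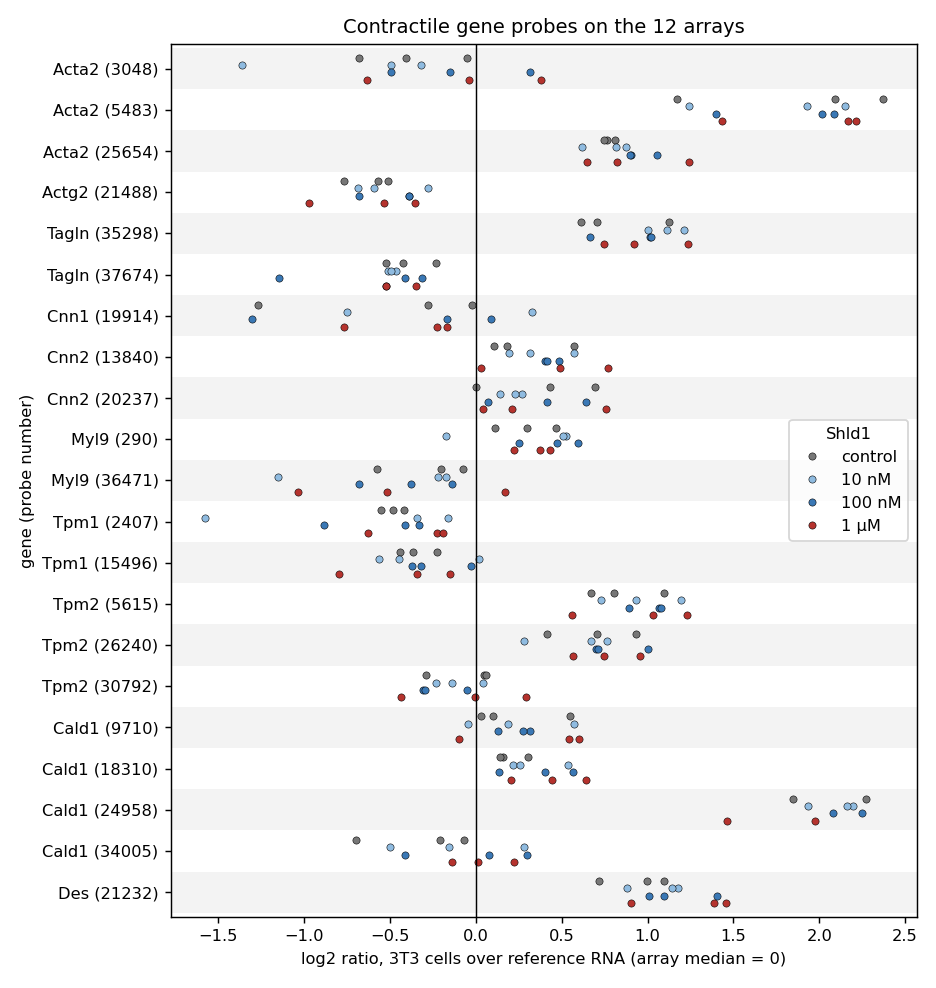
Log2 ratios of 3T3 cells over reference RNA (horizontal axis, array median at 0) of the 21 tested probes, 1 point an array, coloured by Shld1 group, with the probe number after the gene. Acta2 probe 5483 and Cald1 probe 24958 lie farthest above 0, and probes of Acta2, Tagln and Myl9 lie on both sides of it.

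Against the reference RNA, control cells were higher on several contractile gene probes and lower on those of Actg2 and on 1 of the Tagln probes. Of the 21 probes tested, 7 were higher and 2 lower at an adjusted p of 0.05 (limma, Benjamini-Hochberg over all 30357 probes tested). Among all probes tested, 23.4% were higher and 19.9% were lower in control cells. With the 4 groups averaged, which gives a smaller error, 12 of the 21 probes were higher and 7 lower, where 35.6% of all probes were higher and 35.6% were lower. These counts describe a list in which several probes share a gene. The reference is a single RNA pool without a dye swap, so a probe's dye bias is part of each ratio.

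Acta2 encodes alpha smooth muscle actin, the classical marker of myofibroblasts. On probe 5483 its log2 ratio was 2.37, 2.09 and 1.17 in control cells, 1.93, 2.15 and 1.24 at 10 nM, 2.09, 2.02 and 1.40 at 100 nM, and 2.17, 2.22 and 1.43 at 1 µM. The control mean of 1.88 ± 0.63 (SD, n = 3) is a 3.67-fold excess over the reference (SE of the log2 ratio 0.25, limma adjusted p = 0.00012). In each of the 4 groups, 1 array of the 3 stood well below the other 2. Probe 25654 of the same gene was higher than the reference by less, at 0.78 ± 0.03 in control cells, with all 12 arrays between 0.62 and 1.24. Probe 3048 lay on the other side of 0 on 10 of 12 arrays, with a mean over the 4 groups of -0.33 (SE 0.12, adjusted p = 0.0249 in limma). All 3 probes are annotated with the same Acta2 transcript record, so the gene has no single ratio on this array.

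Actg2 encodes the gamma actin of enteric smooth muscle. Its only probe was below the reference on all 12 arrays, between -0.97 and -0.28, and averaged -0.62 ± 0.13 in control cells (SD, n = 3), which is 1.53-fold lower (adjusted p = 0.0040 in limma). The ratios of the other actins set these in context. In control cells cytoplasmic gamma actin, Actg1, stood at 1.45 ± 0.18 and cytoplasmic beta actin, Actb, at 0.44 ± 0.10. A gene's value is here the mean of its probes with values on all 12 arrays.

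Tagln encodes transgelin, or SM22 alpha, an actin-bundling protein that appears early in smooth muscle differentiation. Probe 35298 was above the reference on all 12 arrays, between 0.61 and 1.24, and averaged 0.81 ± 0.27 in control cells (adjusted p = 0.00068, limma). Probe 37674 was below it on all 12 arrays, between -1.15 and -0.23, and its control mean of -0.39 ± 0.15 passed narrowly at an adjusted p of 0.0498. That call was lost in 13 of 22 alternative settings. The 2 probes lay on opposite sides of 0 on every array, although both are annotated with 1 record. The non-muscle relative Tagln2 stood near the reference, at -0.09 ± 0.10 in control cells.

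The tropomyosins run along the actin filament and set which other proteins may bind it. Tpm2, which encodes beta-tropomyosin, was above the reference on 2 of its 3 probes. Probe 5615 averaged 0.86 ± 0.22 and probe 26240 averaged 0.68 ± 0.26 in control cells (adjusted p = 0.00069 and 0.0023 in limma), and both were above 0 on all 12 arrays. Probe 30792, on the same record, scattered around 0 from -0.44 to 0.29, with a mean over the 4 groups of -0.11 (adjusted p = 0.185). Tpm1, which encodes alpha-tropomyosin, was below the reference when the 4 groups were averaged, at -0.52 on probe 2407 and -0.34 on probe 15496 (adjusted p = 0.0012 and 0.0016). The control mean alone did not pass for either Tpm1 probe (adjusted p = 0.0994 and 0.0832). Probe 2407 passed without replicate 3 of the 10 nM group (adjusted p = 0.0150), without centring (0.0419) and with only the control arrays fitted (0.0394), and probe 15496 passed without centring (0.0231). Of the tropomyosins typical of non-muscle cells, Tpm4 stood at 0.51 ± 0.23 and Tpm3 at 0.10 ± 0.08 in control cells.

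Caldesmon, encoded by Cald1, restrains the actin-activated ATPase of myosin. Probe 24958 had 9 values, all well above the reference: 2.27 and 1.85 in control cells, 2.20, 2.16 and 1.93 at 10 nM, 2.08 and 2.25 at 100 nM, and 1.98 and 1.46 at 1 µM. The control value of 2.06 (n = 2 arrays, SE 0.18) is a 4.16-fold excess, and it had the smallest adjusted p of the 21 probes (3.92e-05, limma). Probe 18310, annotated with the same record, averaged only 0.33 over the 4 groups (adjusted p = 0.00049), and probe 9710, on another record, averaged 0.26 (adjusted p = 0.0133). Probe 34005 lay between -0.70 and 0.30, and its mean of -0.11 did not pass.

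The calponins bind actin and damp the sliding of myosin. Cnn1, the form typical of differentiated smooth muscle, was measured by 1 probe with 11 values from -1.30 to 0.33. It had the widest spread of the single-probe genes, and its mean over the 4 groups of -0.40 passed at an adjusted p of 0.0468. Cnn2, a form made in many non-muscle cells, was above the reference on all 12 arrays on both of its probes. Probe 13840 averaged 0.38 and probe 20237 averaged 0.32 over the 4 groups (adjusted p = 0.00064 and 0.0041). Neither Cnn2 probe passed in control cells alone. The third calponin, Cnn3, stood at 0.33 ± 0.06 in control cells.

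Myl9 encodes the regulatory light chain whose phosphorylation switches on smooth muscle and non-muscle myosin. Its 2 probes belong to different transcript records and went opposite ways. Over the 4 groups probe 290 averaged 0.34 (adjusted p = 0.0013) and probe 36471 averaged -0.41 (adjusted p = 0.0067). Neither control mean passed, at 0.29 ± 0.18 and -0.28 ± 0.26. The closely related light chains Myl12b and Myl12a stood at 0.53 ± 0.05 and -0.01 ± 0.38 in control cells.

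Des encodes desmin, the muscle intermediate filament protein, which smooth muscle shares with striated muscle. Its 1 probe was above the reference on all 12 arrays and averaged 1.10 over the 4 groups (SE 0.07), a 2.15-fold excess. The control mean of 0.94 ± 0.20 passed at an adjusted p of 0.00030. Vimentin, Vim, the intermediate filament protein typical of fibroblasts, stood at 0.66 ± 0.10 in control cells.

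Probes of 1 gene disagreed often. Of the 7 members with 2 or more tested probes, 3 (Acta2, Tagln and Myl9) had 1 probe called higher and another called lower than the reference with the 4 groups averaged. Among all 4665 genes with 2 or more tested probes, 25.6% had calls in both directions. The span between a gene's highest and lowest probe mean was 2.18 for Acta2, 2.12 for Cald1, 1.44 for Tagln, 1.05 for Tpm2, 0.75 for Myl9, 0.18 for Tpm1 and 0.05 for Cnn2, against a median of 0.60 over all such genes. Among genes with as many tested probes, the span was larger than that of 96.9% for Acta2 and 68.6% for Tpm2 (996 genes with 3 probes), than that of 91.8% for Cald1 (316 genes with 4), and than that of 90.9% for Tagln, 68.2% for Myl9, 20.5% for Tpm1 and 5.63% for Cnn2 (3232 genes with 2). Across the arrays the 16 pairs of probes of 1 gene had correlations between -0.54 and 0.70, with a median of 0.02, and the pair Tpm2 5615 and 26240 had the highest. These correlations share the arrays and the reference, and are given as a description. Which probe of a gene reads its transcript was not tested, and probe sequences were not analysed here.

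No change of these genes with Shld1 passed the test. None of the 21 probes passed at 10 nM, 100 nM or 1 µM against control (limma), and none had an unadjusted p under 0.05 at any dose. The smallest unadjusted p was 0.160 at 10 nM (Tagln probe 35298), 0.243 at 100 nM (Cald1 probe 34005) and 0.144 at 1 µM (Des). Of all probes tested, 0% were called at 10 nM, 0% at 100 nM and 0.00329%, a single probe, at 1 µM, and 812, 980 and 1284 probes had an unadjusted p under 0.05 at these doses.

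No difference between doses passed either. Over the mean of the doses against control, 0% of all probes were called. The comparison of 1 µM with 100 nM called 0.00329%, that of 100 nM with 10 nM 0%, and that of 1 µM with 10 nM 0.00329%. A linear trend over dose rank called 0.00329%, and an F test for any difference between the 4 groups called 0.00329%. None of the calls was a member, and in none of these comparisons did a member probe have an unadjusted p under 0.05.

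**Figure D2:**
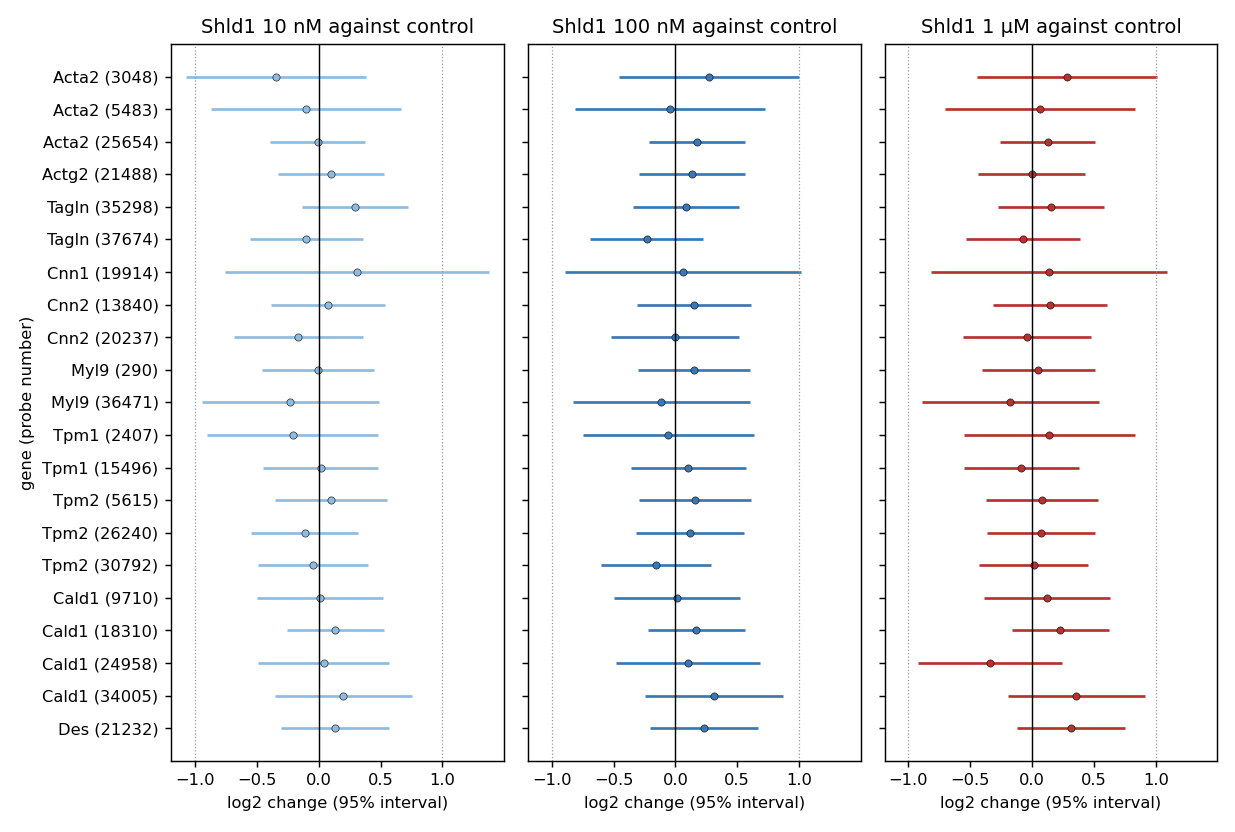
Log2 change against control of each of the 21 probes at 10 nM, 100 nM and 1 µM (1 panel a dose), with the 95% interval from limma as a bar and dotted lines at a halving and a doubling. Every interval includes 0.

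The size of a change that these arrays leave possible is given by the intervals. The 95% interval of the change stayed inside a halving and a doubling for 19 of 21 probes at 10 nM, 20 at 100 nM and 19 at 1 µM. For all probes these shares were 80.0%, 80.4% and 77.9%. With the 3 doses averaged, the interval lay within a doubling for all 21 tested probes. The wider intervals belonged to Cnn1 and Acta2 probe 3048, and that of Cnn1 at 1 µM ran from -0.82 to 1.09. For Acta2 probe 5483 the change at 1 µM was 0.06, with an interval from -0.70 to 0.83. Probe 25654 of Acta2 had a narrower interval at 1 µM, from -0.26 to 0.51 around 0.13.

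The group means of 4 probes, those of Des and of Cald1 probes 9710, 18310 and 34005, stood in dose order. Those of Cald1 probe 24958 did not, at 2.06 in control cells, 2.10 at 10 nM, 2.16 at 100 nM and 1.72 at 1 µM. The share of all probes in dose order was not computed, so the count has no baseline. The log2 ratio of Des was 0.72, 1.10 and 1.00 in control cells, 1.18, 0.88 and 1.14 at 10 nM, 1.40, 1.01 and 1.09 at 100 nM, and 1.46, 1.39 and 0.90 at 1 µM. The means were 0.94 ± 0.20 in control cells, 1.07 ± 0.16 at 10 nM, 1.17 ± 0.21 at 100 nM and 1.25 ± 0.30 at 1 µM (SD, n = 3 each). Each neighbouring pair overlapped, and the lowest 1 µM array lay below the highest control arrays. The change at 1 µM was 0.31 (SE 0.20, 95% interval -0.12 to 0.75), and the slope per dose step was 0.10 (SE 0.06), with an unadjusted p of 0.126 and an adjusted p of 0.9999 in limma. Cald1 probe 18310 averaged 0.20 ± 0.09 in control cells, 0.34 ± 0.18 at 10 nM, 0.37 ± 0.22 at 100 nM and 0.43 ± 0.22 at 1 µM, and its groups overlapped too.

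Cald1 probe 34005 had a fitted change of 0.36 at 1 µM (SE 0.25), with values of 0.02, -0.14 and 0.22 at 1 µM against -0.70, -0.21 and -0.07 in control cells. Probe 24958 of the same gene went the other way, by -0.34 (SE 0.26), with 1.98 and 1.46 at 1 µM against 2.27 and 1.85 in control cells. In both cases the groups overlapped and the adjusted p was 0.999. Leaving out 1 array, the change ran from 0.17 to 0.49 for probe 34005 and from -0.60 to -0.08 for probe 24958.

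Groups that did not overlap were rare. At 100 nM, Acta2 probe 25654 had 0.90, 1.05 and 0.90, all above the control values of 0.81, 0.77 and 0.75, with a change of 0.17 (SE 0.18, unadjusted p = 0.342). It was the only one of the 21 probes without overlap at any dose. Of all probes, 7.74% had no overlap with control at 10 nM, 9.42% at 100 nM and 8.79% at 1 µM. At 1 µM the same probe had 0.65, 1.24 and 0.82 and overlapped with control.

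The median change of the 10 genes was 0.04 at 10 nM, 0.07 at 100 nM and 0.05 at 1 µM, where the medians over all 14523 genes were -0.01, 0.02 and -0.02. Of the 10 genes, 5, 9 and 8 lay above 0 at these doses, as did 48.4%, 53.9% and 47.0% of all genes. Cald1 enters these values through probes 9710, 18310 and 34005 only. Its probe 24958, with a change of -0.34 at 1 µM, had 9 values and is not part of the gene value. Single arrays moved these medians. The one at 10 nM ran from -0.017 without replicate 1 of the 10 nM group to 0.050 without replicate 3, and was below 0 also without control replicate 3. The one at 100 nM was 0.040 without control replicate 3. At 1 µM it was 0.010 without replicate 2, 0.097 without replicate 1 and 0.19 without replicate 3 of the 1 µM group, and 0.095 without control replicate 2 and 0.035 without control replicate 3. The median size of a change, regardless of sign, was 0.11, 0.07 and 0.06 for the set and 0.13, 0.13 and 0.15 for all genes. The 3 doses were set against the same control arrays, so their values are not independent.

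On an Acta2 probe the arrays with replicate number 3 in the labels stood apart from the others in every dose group. The share of all probes with such a separation was not computed, so it cannot be called particular to these genes. Acta2 probe 5483 lay between 1.17 and 1.43 in the arrays numbered 3 of all 4 groups, against 1.93 to 2.37 in the arrays numbered 1 and 2. The 4 arrays numbered 3 averaged 1.31 ± 0.12, those numbered 1 averaged 2.14 ± 0.18 and those numbered 2 averaged 2.12 ± 0.09. The difference of -0.82 between number 3 and the others is 1.76-fold. In a fit with dose group and replicate number, added after these values were seen, the unadjusted p of this probe was 0.000248 and its adjusted p was 0.172, so it did not pass. None of the 21 probes passed that test at the adjusted threshold, where 0.0033% of all probes passed. Of the 21, 3 had an unadjusted p under 0.05. The share of all probes under that unadjusted value is not given here, so this count has no baseline.

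**Figure D3:**
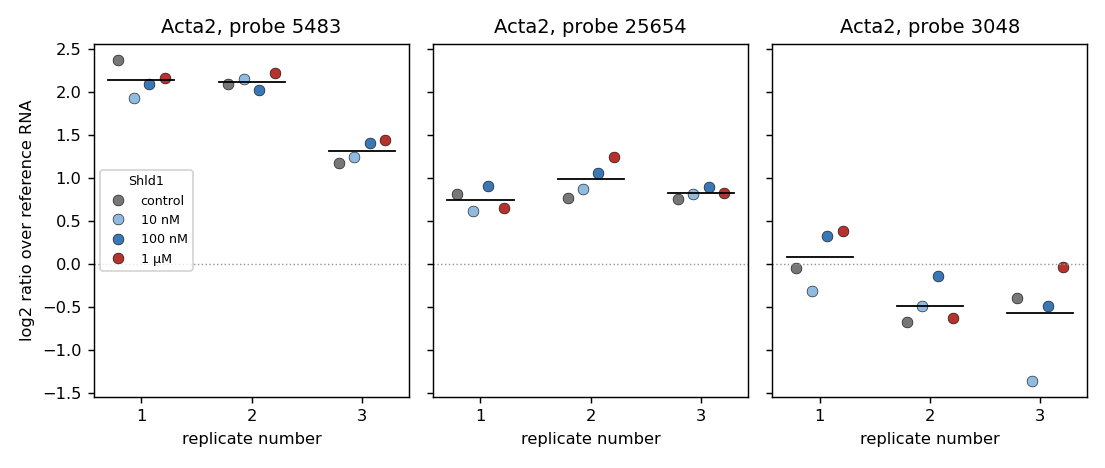
Log2 ratios over reference RNA of 3 Acta2 probes (1 panel each) by the replicate number of the labels, 1 point an array coloured by Shld1 group, with the mean of the 4 arrays as a line. Only in the panel of probe 5483 do the 4 arrays numbered 3, at 1.17 to 1.43, lie below all others.

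Actg2 showed the same order at a smaller size. Its arrays numbered 3 lay between -0.97 and -0.68 and the others between -0.59 and -0.28, with a difference of -0.33 (adjusted p = 0.519). Acta2 probe 3048 also had its lowest mean in number 3, -0.57, against 0.08 in number 1 and -0.49 in number 2 (difference of number 3 from the others -0.37, unadjusted p = 0.0257, adjusted p = 0.424), but its arrays overlapped. Acta2 probe 25654 averaged 0.82 in number 3, 0.74 in number 1 and 0.98 in number 2. Other members went the opposite way. Cald1 probe 34005 averaged 0.13 in number 3, -0.40 in number 1 and -0.05 in number 2. Its difference of 0.35 had an unadjusted p of 0.0310 and an adjusted p of 0.444 in the same limma fit. Cnn1 was higher in number 3 by 0.49, so the set had no common direction there. Within the replicate numbers the 1 µM minus control difference of Acta2 probe 5483 was -0.20 in number 1, 0.13 in number 2 and 0.26 in number 3, so the dose values had no common sign there either. In the array names of the labels, the 4 arrays of each replicate number, 1 from every dose group, form a consecutive run, and the sources used here do not give what else the number stands for. Each number holds every dose group, so the dose comparisons are balanced over the numbers. Over all probes, deviations from the group means correlated between -0.10 and 0.25 for arrays of the same number, with 9 of 18 pairs above 0.1, and between -0.31 and 0.21 for arrays of different numbers, with 5 of 36 above 0.1.

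Correlations between the members had a low median, but so had those between probes of 1 gene (0.02). They therefore cannot show whether the genes vary together, and the median over other gene pairs was not computed. The 36 pairs of the 9 genes measured on every array had correlations across the 12 arrays between -0.42 and 0.77, with a median of 0.12, and 24 of them lay above 0. Cnn2 and Myl9 formed the closest pair. The mean of the member genes was 0.22, 0.20 and 0.16 in control cells, 0.21, 0.30 and 0.07 at 10 nM, 0.23, 0.35 and 0.24 at 100 nM, and 0.24, 0.45 and 0.16 at 1 µM. These means overlapped with those of control cells at 10 nM and 1 µM, and at 100 nM all 3 lay above. The lowest at 100 nM was 0.23 and the highest in control cells 0.22, where the SD of this mean within groups was 0.10. Of all single probes, 9.42% had no overlap with control at 100 nM. Among 12726 other genes measured on all 12 arrays, those closest to this mean by Pearson correlation were Tedc1 (0.89), Bpifb9a (0.88), Ripor1 (0.88), Acap1 (0.87) and Jade1 (0.86). Closest to Acta2 were Mettl21e (0.93), Phgdh (0.92) and Msmb (0.91), all of which averaged lower in the arrays numbered 3 than in the others. These coefficients are the highest of many over 12 arrays that share 1 reference, and they are given as a description.

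**Figure D4:**
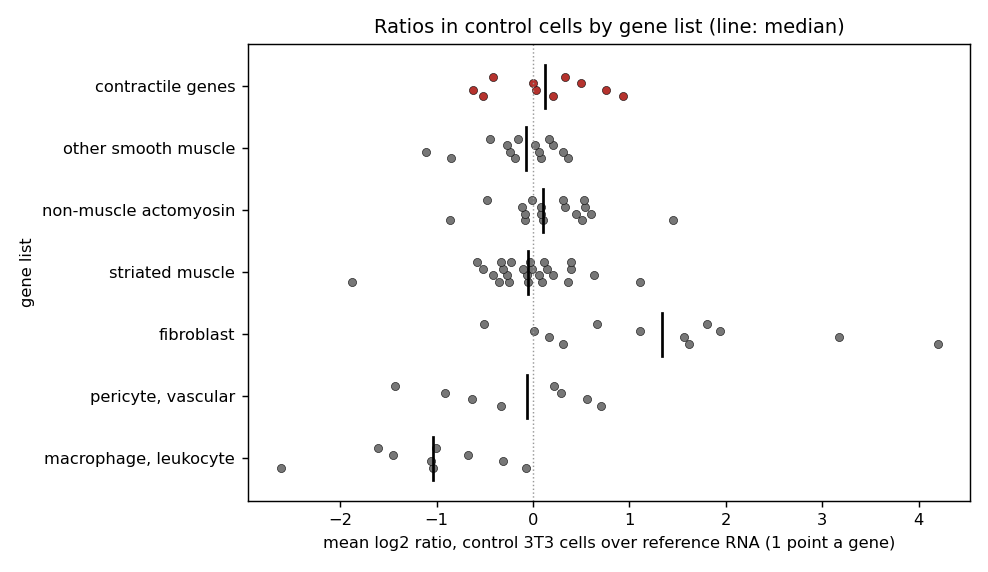
Mean log2 ratio of control 3T3 cells over reference RNA by gene list, 1 point a gene (contractile genes in red) and the list median as a line. The contractile genes lie around their median of 0.12, most fibroblast markers lie to the right and the macrophage and leukocyte markers to the left.

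Markers of cell types were also set against the reference. The direction of the ratios itself rests in part on genes of known sign, so these markers are no independent check of the cells. Of 31 fibroblast marker probes, 24 were higher than the reference in control cells and 1 was lower. The highest genes were Lum at 4.20 ± 0.27, Postn at 3.18 ± 0.50 and S100a4 at 1.94 ± 0.26 (SD, n = 3), which encode lumican, periostin and a calcium-binding protein of motile fibroblasts. The lowest genes of this list were Pdgfra at -0.51 ± 0.47 and Col3a1 at 0.01 ± 0.24. None of 15 macrophage and leukocyte probes was higher and 11 were lower. Their genes ran from Ptprc, the leukocyte antigen CD45, at -2.62 ± 0.79 to Itgam at -0.07 ± 0.17. Among 12 pericyte and vascular probes 2 were higher and 5 lower, among 10 epithelial probes 1 was higher and 3 lower, and among 9 adipocyte probes 2 were higher and 3 lower. The highest genes of these lists were Tek at 0.70 ± 0.38, Krt5 at 0.68 ± 0.36 and Adipoq at 0.98 ± 0.45. Of 32 striated muscle probes 3 were higher and 5 lower, and the highest gene was Tnnc2, a troponin of fast muscle, at 1.10 ± 0.13. The gene median of the contractile genes was 0.12 in control cells, against 1.33 for the fibroblast markers, 0.10 for 17 non-muscle actomyosin genes, -0.07 for 14 other smooth muscle genes and -1.04 for the macrophage and leukocyte markers.

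Genes that share pathways with the set did not pass at any dose either. Of 23 probes of other smooth muscle genes, 5 were higher and 4 lower than the reference in control cells, and none changed with Shld1. The smallest unadjusted p at 1 µM among them was that of Mylk, the kinase that phosphorylates the light chain, at 0.0849 on probe 7612 with a change of 0.57 (SE 0.30). Of 56 non-muscle actomyosin probes, 25 were higher and 4 lower than the reference, and none changed. Tmod3, which caps the slow-growing end of actin filaments, had 0.53 (SE 0.29) at 1 µM, and probe 13296 of Myh10, a non-muscle myosin heavy chain, had -0.42 (SE 0.25).

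Among 39 probes of genes that act on SRF and its cofactors, 8 were higher and 7 lower than the reference, none passed at any dose and 2 had an unadjusted p under 0.05 at 1 µM. Of these, probe 34870 of Myocd, the SRF cofactor of smooth and cardiac muscle, had 0.57 (SE 0.19, unadjusted p = 0.0119 in limma). The other, probe 37196 of Rock1, went the opposite way, with -0.51 (SE 0.22, unadjusted p = 0.0420 in limma). With probes averaged by gene, the changes of this list at 1 µM ran from -0.47 to 0.30. Of 29 probes of genes that respond to SRF or TGF-beta, 16 were higher and 7 lower than the reference and none passed at any dose. Probe 20590 of Tgfbi, a matrix gene named for its induction by TGF-beta, had -0.71 at 1 µM (SE 0.31, unadjusted p = 0.0397 in limma). With probes averaged by gene, the lowest change of this list at 1 µM was -0.42. The adjusted p of each of these 1 µM changes was 0.999.

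Among the fibroblast markers, 4 of 31 probes had an unadjusted p under 0.05 at 1 µM and the gene median was -0.36, and none passed. Of all 30357 probes tested, 1284 had such a p at this dose. Probe 31295 of Dcn, the matrix proteoglycan decorin, had a change of -0.59 (SE 0.21) and probe 235 of Lum one of -1.26 (SE 0.47). The macrophage and leukocyte markers had a gene median of 0.29, with all 9 genes above 0 and none called. Of all genes, 47.0% lay above 0 at 1 µM, with a median of -0.02. In control cells these markers had a gene median of -1.04 against the reference, and their signal over background is unknown. A shift in cell type was not tested, nor was the part of these markers in the values of the contractile genes.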

How the data were processed

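The values are the log2 ratios that the authors deposited, 1 per probe and array. The sources used here do not give their normalization, background correction, spot filters, log base or direction, and scanner intensities were not analysed here. Arrays had 30649 to 33615 values, with medians from -0.20 to -0.10 before centring. Entries written as null (929) were read as missing. Probes were named from the platform's annotation, with symbols updated by gene identifier: 26173 probes had 1 symbol, 28 several and 12583 none.

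After median centring, the 30357 probes with values on at least 2 of 3 arrays of every group entered 1 limma fit (version 3.58.1, R 4.3.3) of the 12 arrays, whose only term was the dose group. Benjamini-Hochberg adjustment ran over all of these probes, at a threshold of 0.05. The test was checked on simulated data. Gene values average the probes that have all 12 values, or take the most complete probe where no probe has them. Cald1 probe 24958, with 9 values, is therefore left out of every Cald1 gene value. All members are named. Genes of other lists are named by their smallest p at 1 µM or highest ratio in control cells, and counterparts by a fixed list. The members and lists were chosen with earlier results of these data known. The doses share their control arrays. The labels' replicate numbers were not taken to pair the samples, since no label states a shared culture or day. Not every same-number pair of deviations correlated above 0.1 either. Such pairs did so more often than other pairs (9 of 18, against 5 of 36), so this does not show that a number shares nothing. The number was also fitted as a block, as given below. Figures used matplotlib 3.10.9 in Python 3.11.15, with pandas 2.3.3.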

Additional observations from a re-analysis of the deposited data

How the results depend on the processing

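Each result was recomputed under up to 23 alternatives: no centring, equal median absolute deviation, quantile normalization, other probe filters, array weights, robust variance, only the groups compared, 1 value per gene, the replicate number as a block and leaving out each array. No member probe was called in any dose comparison under any of them. The count of member probes higher than the reference in control cells was 3 with 1 value per gene (6 to 7 under the other settings, and 7 to 8 without 1 array). The count lower was 4 without centring, 1 with values on at least 1 array of every group, 1 with array weights, 1 with 1 value per gene and 1 to 2 without 1 array. With the 4 groups averaged, 1 value per gene gave 6 higher and 3 lower. Without 1 array the median change at 1 µM ran from 0.010 to 0.19, that at 10 nM from -0.017 to 0.050 and that at 100 nM from 0.040 to 0.082. With probes on all 12 arrays only, the 10 nM median was -0.022.

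Signs of uncalled changes at 1 µM turned under some settings. Actg2 was 0.0017 with equal median absolute deviation and 0.0054 with quantile normalization, Tpm2 probe 30792 was -0.024 and -0.022 under these and -0.068 with array weights, which also gave -0.030 for Cnn1 and 0.083 for Cnn2 probe 20237. Without 1 array the 1 µM change ran from -0.29 to 0.31 (Acta2 5483), -0.042 to 0.26 (Acta2 25654), -0.14 to 0.17 (Actg2), -0.14 to 0.008 (Tagln 37674), -0.24 to 0.39 (Cnn1), -0.023 to 0.34 and -0.25 to 0.12 (Cnn2), -0.040 to 0.14 and -0.49 to 0.11 (Myl9), -0.23 to 0.10 (Tpm1 15496), -0.061 to 0.27, -0.063 to 0.19 and -0.16 to 0.20 (Tpm2), and -0.0057 to 0.34 (Cald1 9710). The control ratio of Tpm2 probe 30792 ran from -0.12 to 0.0525. The cause of these turns was not tested. The call of Tagln probe 37674 in control cells was lost in 13 of 22 settings, with adjusted p from 0.0127 to 0.201, and calls were gained by Tpm1 probe 2407 in 3 settings, Tpm1 probe 15496 in 1 and Cnn2 probe 20237 in 1 (without control replicate 2).

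No label states what samples of 1 replicate number share beyond consecutive array names. With the replicate block, fixed or random (consensus correlation 0.0451), the count of member probes called was 0 at every dose, while calls over all probes at 1 µM went to 0 under the fixed block. Over all probes, calls at 1 µM against control were 0 to 3 over the settings, where 1 was called. Signal over background is unknown, and 3 arrays a group limit the precision.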
